A study of Mus musculus with 4 samples.

Results

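The 44 genes described here carry out DNA replication (20 genes) or mitosis (24 genes), and the 2 sets are given apart throughout. A probe was taken as a measure of a gene where the platform annotation, or a current synonym of its symbol, gave that gene. By this rule 41 of the 44 genes were measured, by 52 probes, among 16637 named genes and 21020 named probes in all. Of the replication genes 19 of 20 were measured and of the mitosis genes 22 of 24. Gins2, a subunit of the GINS complex, and Ccnb1 and Foxm1, which encode cyclin B1 and a mitotic transcription factor, were matched to no named probe and have no value here. The genes were not chosen by a threshold on measured values, but they were chosen with earlier results of these data known.

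The arrays hold colon RNA of mice in a chemical colitis model, in which trinitrobenzene sulphonic acid (TNBS), a hapten given in ethanol, causes inflammation of the colon. The study used 24 female mice in 4 groups of 6. The mock group received 0.1 ml of 50% ethanol. The other groups received 250 mg/kg TNBS in the same volume of 50% ethanol, alone, with ginger extract or with zingerone. Zingerone is a pungent phenol of ginger, and the ginger extract is called ginger below. The mice were killed on day 7. The strain is labelled BALB/c for the mock array and BALC/c for the other arrays, and no genotype or age is given in the labels. Each group is represented by 1 array, made from 5 µg of total RNA labelled with Cy3. The labels do not say whether that RNA came from 1 mouse or from a pool, nor which amount of ginger or zingerone was given. All values below are therefore single measurements, no difference has a replicate error, and no test could be made.

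To copy its DNA, a cell first loads the ring-shaped MCM helicase onto origins with the help of Cdc6 and Cdt1, then activates it with Cdc45 and GINS, while primase, polymerases and the sliding clamp PCNA build the new strands. Mitosis follows under cyclin-dependent kinase 1 and the Polo and Aurora kinases, with motor proteins forming the spindle and a checkpoint holding back the anaphase-promoting complex until every chromosome is attached. In a healthy colon most dividing cells are epithelial cells of the lower crypt, and in an inflamed one immune and stromal cells can divide as well.

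The 2 sets are known for different switches in their promoters. E2F factors turn on replication genes at the start of S phase, and the MuvB complex with B-Myb and Foxm1 turns on mitosis genes later through an element called CHR (cell cycle genes homology region), often next to boxes bound by NF-Y. RefSeq promoter windows of assembly GRCm38.p6, from 250 bases before to 50 bases after the start, were available for 35 of the 44 genes. They were searched on both strands for 4 E2F spellings, 2 CHR spellings and the NF-Y box CCAAT. The E2F spellings were TTCCCGC, its variant TTGGCGC, then the spelling TTCGCGC and also the spelling TTGCCGC. The CHR spellings were TTTGAA, its canonical form, and the variant TTCGAA. E2F spellings can overlap each other on opposite strands, and the E2F spelling TTGGCGC can share bases with CCAAT.

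The promoters of 3 replication genes with large differences between these arrays are shown to make the E2F matches visible, from 170 bases before to 30 bases after the start and read along the gene. Capitals mark every E2F, CHR and CCAAT match. Mcm5 lies at chr8:75109339-75109538 on the plus strand, Mcm6 at chr1:128359676-128359875 on the minus strand and Rrm1 at chr7:102441525-102441724 on the plus strand. The last capitals of Mcm6 belong to a match that runs past the printed stretch.
Mcm5: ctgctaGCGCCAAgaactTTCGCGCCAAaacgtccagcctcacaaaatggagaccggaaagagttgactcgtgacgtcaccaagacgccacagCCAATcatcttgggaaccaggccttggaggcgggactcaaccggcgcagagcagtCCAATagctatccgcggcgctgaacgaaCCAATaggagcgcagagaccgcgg
Mcm6: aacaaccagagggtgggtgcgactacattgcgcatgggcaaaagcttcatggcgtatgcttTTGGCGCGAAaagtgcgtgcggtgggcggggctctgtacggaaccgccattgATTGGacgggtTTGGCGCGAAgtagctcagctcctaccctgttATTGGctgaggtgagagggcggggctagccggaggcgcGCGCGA
Rrm1: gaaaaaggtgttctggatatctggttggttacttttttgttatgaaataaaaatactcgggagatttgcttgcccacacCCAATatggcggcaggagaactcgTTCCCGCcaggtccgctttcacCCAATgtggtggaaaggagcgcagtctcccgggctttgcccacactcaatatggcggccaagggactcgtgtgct

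The promoters of 3 mitosis genes with large differences are shown in the same way for their CHR and CCAAT matches. Ccnb2 lies at chr9:70421525-70421724 on the minus strand, Cenpa at chr5:30666716-30666915 on the plus strand and Top2a at chr11:99024160-99024359 on the minus strand.
Ccnb2: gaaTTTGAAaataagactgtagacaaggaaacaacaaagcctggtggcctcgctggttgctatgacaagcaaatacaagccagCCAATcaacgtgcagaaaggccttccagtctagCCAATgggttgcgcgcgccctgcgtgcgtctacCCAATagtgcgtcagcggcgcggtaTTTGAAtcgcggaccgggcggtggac
Cenpa: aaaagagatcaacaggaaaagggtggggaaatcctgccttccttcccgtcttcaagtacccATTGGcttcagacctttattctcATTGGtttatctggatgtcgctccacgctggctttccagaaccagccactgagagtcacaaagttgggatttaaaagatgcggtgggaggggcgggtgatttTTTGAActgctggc
Top2a: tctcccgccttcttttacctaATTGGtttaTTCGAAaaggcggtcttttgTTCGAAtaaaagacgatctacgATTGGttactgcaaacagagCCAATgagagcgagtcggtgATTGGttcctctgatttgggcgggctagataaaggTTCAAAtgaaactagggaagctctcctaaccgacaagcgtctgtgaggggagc

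In the shown stretches, Mcm5 has 3 E2F and 3 CCAAT matches with no CHR, and Mcm6 has 4 E2F and 2 CCAAT matches with no CHR. The Rrm1 stretch has 1 E2F match and 2 CCAAT matches. Ccnb2 and Cenpa have no E2F match, but 2 and 1 CHR matches and 3 and 2 CCAAT matches. Over whole windows, an E2F spelling was found in 10 of 16 replication promoters (62.5%) and 3 of 19 mitosis promoters (15.8%), against 10.9% of 27025 mouse genes with an entry. CHR showed the opposite split, with 3 of 16 replication promoters (18.8%) and 15 of 19 mitosis promoters (78.9%), against 21.7% of all genes. CCAAT was present in 62.5% of the replication and 84.2% of the mitosis promoters, against 41.1%. Among the 13345 named genes of these arrays with an entry, the shares were 15.6% for E2F, 18.6% for CHR and 41.9% for CCAAT. The mitosis promoters were thus near that E2F share. All 15 mitosis promoters with CHR also held CCAAT, a combination found in 9.65% of all genes. The mitosis promoters with neither CHR nor an NF-Y box included that of Birc5. A match is a run of letters and shows no binding.

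**Figure D1:**
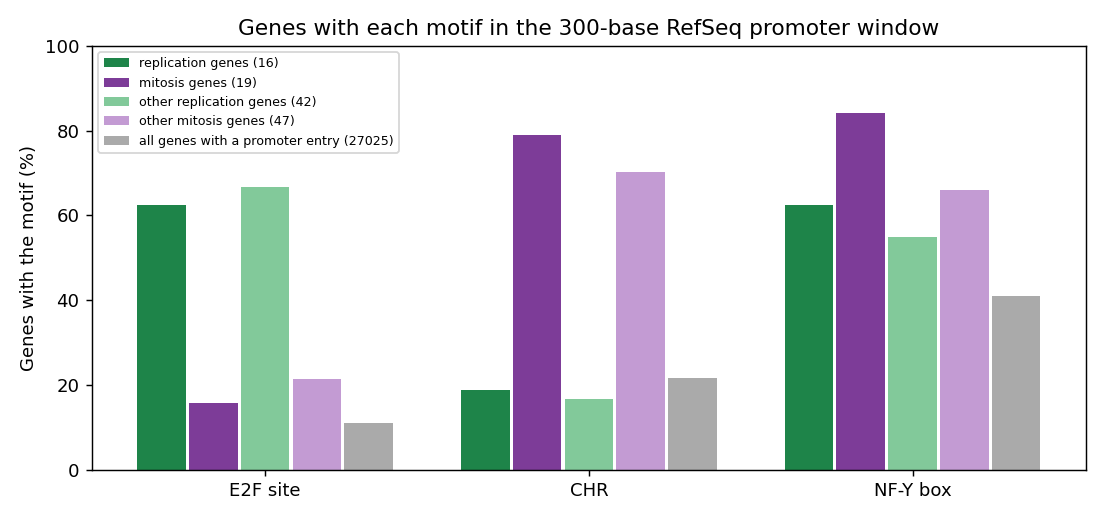
Share of genes (%, vertical axis) with an E2F, CHR or NF-Y match in the promoter window, for the 16 replication and 19 mitosis genes with an entry, for further genes of each process and for all 27025 genes. E2F matches stand at 62.5% for replication genes and 15.8% for mitosis genes, and CHR matches at 18.8% and 78.9%.

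The deposited values are linear Cy3 intensities, the lowest of them 74.25. A gene is given as the geometric mean of its probes. Differences are in log2 units, where 1 is a 2-fold difference. Intensities of different genes are not compared, since probes differ in brightness. All arrays had nearly the same distribution, with median probe intensities of 238.0 to 238.25. A yardstick for single genes comes from the 2893 genes with 2 probes. The log2 differences of such a pair lay a median of 0.31 apart for TNBS against mock, 0.20 for ginger against TNBS and 0.28 for zingerone against TNBS, and the 95th percentiles were 1.17, 0.81 and 1.10. For the 1430 of these genes whose mean reached the median intensity of all genes, the percentiles were 1.355, 0.93 and 1.22. Both probes of a pair are read on the same arrays, so the gap shows probe disagreement and no variation between mice or arrays. Of the 41 measured genes, 34 have only 1 probe. None of the 60 probes that stood apart on a single array belonged to these genes.

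On the TNBS array 16 of the 19 replication genes read below mock, with a median log2 difference of -0.28, where 52.3% of all named genes were below and their median was -0.02. Mcm5 was the only replication gene at least 2-fold lower, where 2.74% of all genes were, and the only one at least 1.5-fold lower, where 7.72% of all genes were. That 1.5-fold count was 5 after subtracting each array's 5th percentile, 4 relative to reference genes and 2 with the brightest probe of each gene. Over all 16637 named genes the same count went from 1284 to 2275, 1749 and 1444 under these settings. The mitosis genes were less displaced, with 17 of 22 below mock and a median of -0.11. Top2a, Bub1b and Ccna2 were at least 1.5-fold lower, against the same 7.72%, and Cdk1 was at least 1.5-fold higher, against 7.42%. In both sets only Mcm5, at -1.57, lay past the 95th percentile of the gap between probe pairs for this comparison, 1.17. Top2a, Bub1b and Cdk1 were dim, with a mean under the median intensity of 286.7. Of the 15 brighter mitosis genes only Ccna2 was at least 1.5-fold lower, where 13.2% of the 8319 brighter genes were. In whole colon RNA, a lower signal from fewer dividing cells cannot be told apart from less of each RNA per cell.

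Against TNBS alone, both sets read higher on the ginger and the zingerone array. On the ginger array 17 of 19 replication genes were above TNBS with a median of 0.30, and 20 of 22 mitosis genes were above with a median of 0.39, where 50.4% of all genes were above and their median was 0.00. Mcm5 alone was at least 2-fold higher (0.817% of all genes). At least 1.5-fold higher (3.67% of all genes) were 3 replication genes, Mcm5, Mcm6 and Rrm1, and 3 mitosis genes, Plk1, Ccna2 and Ube2c. All of these lay past the 95th percentile of the gap between probe pairs, 0.81. Only Mcm5, at 1.26, lay past the 0.93 for brighter genes.

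On the zingerone array 17 of 19 replication genes were above TNBS with a median of 0.36, and 18 of 22 mitosis genes with a median of 0.54, where 45.5% of all genes were above and their median was -0.03. At least 1.5-fold higher (8.87% of all genes) were 4 replication genes, Mcm5, Prim1, Mcm6 and Rrm1, and 9 mitosis genes, Top2a, Plk1, Ccnb2, Cenpa, Ccna2, Bub1b, Ube2c, Mad2l1 and Tpx2. Mcm5, Top2a, Plk1 and Ccnb2 were at least 2-fold higher (2.78% of all genes). Brighter genes passed these folds more often: among the 8319 genes whose mean intensity reached the median of 286.7, 13.2% were at least 1.5-fold higher with zingerone. Of the mitosis genes in that brighter part 7 of 15 were, and of the replication genes 4 of 14. None of the 41 genes lay past the 95th percentile of the gap between probe pairs for zingerone against TNBS, 1.1025. Mcm5 came closest at 1.0978. The ginger and zingerone comparisons share the TNBS array, so a low reading there enters both.

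**Figure D2:**
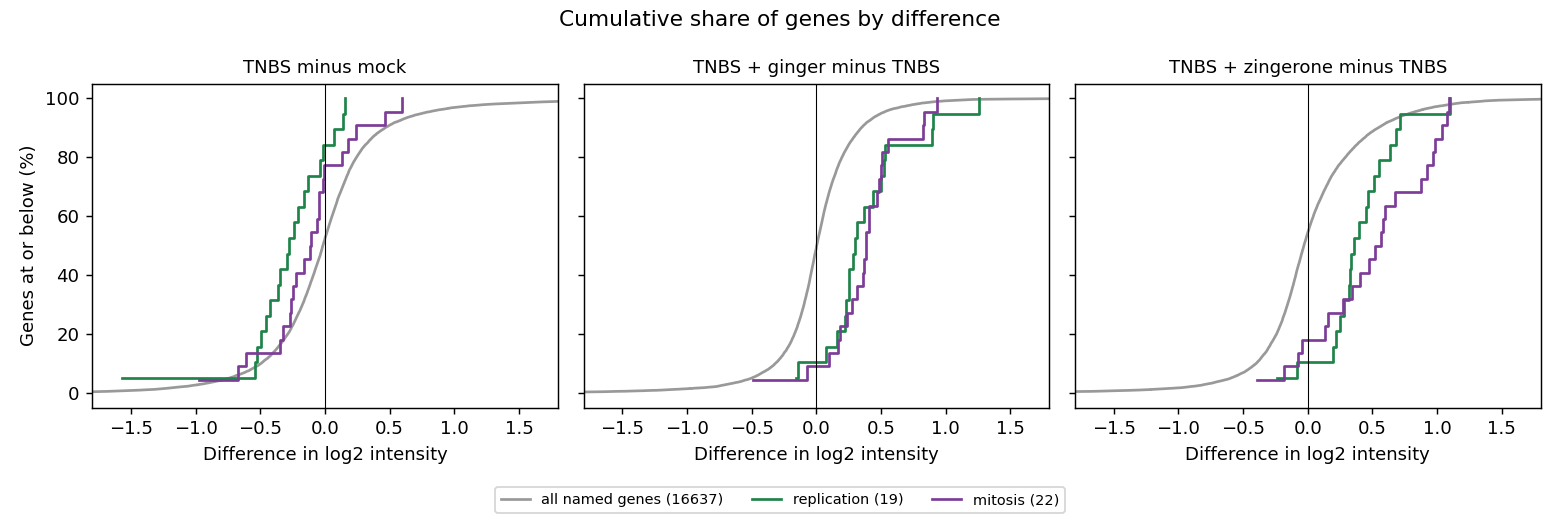
Cumulative share of genes (%, vertical axis) by log2 intensity difference (horizontal axis) for TNBS minus mock, ginger minus TNBS and zingerone minus TNBS, with all 16637 named genes in grey, the 19 replication genes in green and the 22 mitosis genes in purple. Both coloured curves lie mostly left of the grey one in the first panel and right of it in the others, with medians of -0.28 and -0.11, then 0.30 and 0.39, then 0.36 and 0.54.

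By array, TNBS gave the lowest of the 4 readings for 15 of 19 replication genes (78.9%) and 14 of 22 mitosis genes (63.6%), against 29.7% of all named genes. The zingerone array gave the highest reading for 16 of 22 mitosis genes (72.7%) and 7 of 19 replication genes (36.8%), against 24.2% of all genes. Ginger gave the highest reading for 7 of 19 replication genes and 3 of 22 mitosis genes, against 16.7%.

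**Figure D3:**
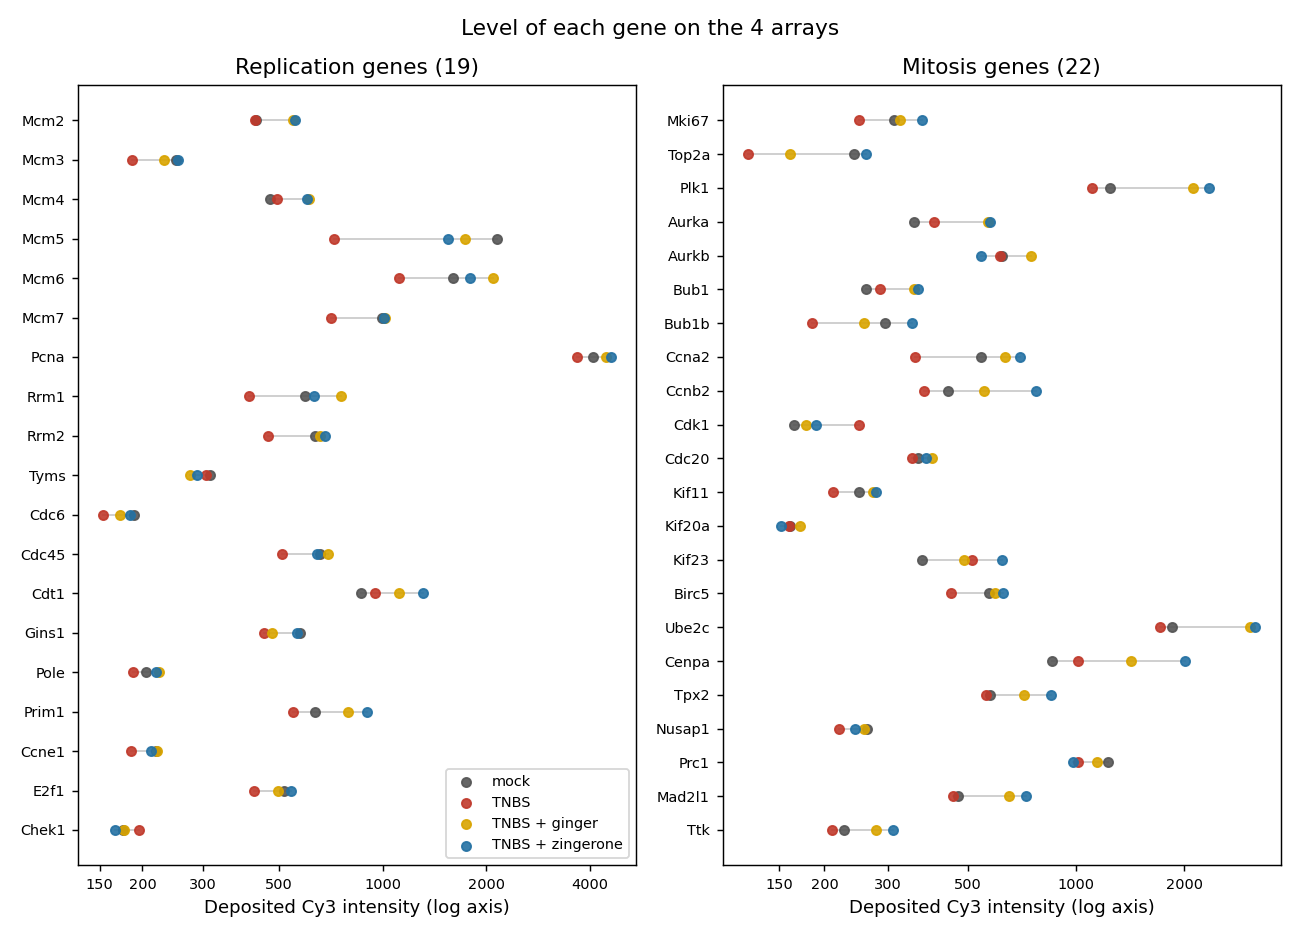
Deposited Cy3 intensity (horizontal log axis) of each of the 19 replication genes (left) and 22 mitosis genes (right), with 1 point per array and a line from the lowest to the highest. The red TNBS point is leftmost for 15 replication and 14 mitosis genes, and the blue zingerone point is rightmost for 16 mitosis genes.

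The helicase genes Mcm2 to Mcm7 encode the 6 subunits of the ring that unwinds DNA. Mcm5 read 2151 on the mock array, 724 with TNBS, 1733 with ginger and 1549 with zingerone. It was 2.97-fold lower with TNBS than in mock, the widest gap among the 41 genes, and with ginger and zingerone it stayed 1.24-fold and 1.39-fold below mock. Mcm6 read 1604, 1117, 2092 and 1792 in the same order, so that TNBS was 1.44-fold below mock and ginger was 1.87-fold and zingerone 1.60-fold above TNBS. Mcm7 read 998, 707, 1016 and 1008, with TNBS low by 1.41-fold and the other arrays within 1.02-fold of each other. For these 3 subunits TNBS was the low array.

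The other subunits differed less. Mcm3 read 249.8 in mock, 186 with TNBS, 232 with ginger and 254 with zingerone. Mcm2 read 428, 424, 548 and 558, and Mcm4 read 469.8, 494, 608 and 601. Neither Mcm2 nor Mcm4 was low with TNBS beyond 1.05-fold of mock, and both were 1.22-fold to 1.31-fold higher with ginger and zingerone than with TNBS. The subunits act as 1 ring in equal parts, yet their TNBS-minus-mock differences ran from -1.57 (Mcm5) to 0.07 (Mcm4).

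Of the factors that load and activate the helicase, Cdc45 read 655 in mock, 510.5 with TNBS, 692 with ginger and 642 with zingerone, again with TNBS lowest. Cdt1, which brings the helicase to origins, read 864, 951, 1117 and 1312. It was lowest in mock, and its zingerone level was 1.52-fold above mock, the only replication gene past 1.5-fold there. Cdc6, its loading partner, read 189, 154, 172 and 184, a span close to the dim end of the scale. Gins1 of the GINS complex read 575, 452, 477 and 563, so that ginger stayed near TNBS and zingerone near mock.

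At the fork, Pcna, the sliding clamp, read 4089 in mock, 3664 with TNBS, 4466 with ginger and 4601 with zingerone. All 4 readings lay within 1.26-fold. Prim1, the catalytic subunit of primase, read 637, 550.0, 793 and 900.5, and was 1.44-fold higher with ginger and 1.64-fold higher with zingerone than with TNBS. Pole, the catalytic subunit of the leading-strand polymerase, read 205, 188, 223 and 218.

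Nucleotide supply rests on ribonucleotide reductase, formed by Rrm1 and Rrm2, and on thymidylate synthase, Tyms. Rrm1 read 594 in mock, 407 with TNBS, 758 with ginger and 633 with zingerone, which put ginger 1.86-fold and zingerone 1.55-fold above TNBS. Rrm2 read 634, 463, 655 and 679, with TNBS 1.37-fold below mock and ginger 1.42-fold and zingerone 1.47-fold above TNBS. Both reductase genes were low with TNBS and at or above mock on the other arrays. For Rrm2 the latter holds for the mean of 2 probes that disagreed in sign against mock. Tyms read 314, 306, 275 and 288, and was one of 2 replication genes not above TNBS on either treated array.

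Among regulators of S-phase entry, E2f1, the founding E2F factor, read 514 in mock, 423 with TNBS, 495 with ginger and 542 with zingerone. Ccne1, cyclin E1, read 219, 185, 221 and 212. Both were lowest with TNBS, by 1.22-fold and 1.18-fold from mock. Chek1, the kinase that slows damaged or stalled forks, ran the other way at 176, 196, 177 and 166, highest with TNBS and dim on every array.

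Cyclins and their kinase drive entry into mitosis. Ccna2, cyclin A2, which also acts in S phase, read 544 in mock, 356 with TNBS, 635 with ginger and 699 with zingerone. It was 1.53-fold below mock with TNBS and 1.78-fold and 1.96-fold above TNBS with ginger and zingerone. Ccnb2, cyclin B2, whose promoter is printed above, read 440.5, 378, 556 and 776. Its zingerone level was 2.06-fold above TNBS, 1.76-fold above mock and 1.4-fold above ginger. Cdk1 read 165, 249.5, 177 and 189.8, with TNBS as the high array by 1.51-fold over mock, unlike both cyclins. Its single probe was dim, and among mitosis genes Kif23 came next in its excess over mock with TNBS.

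Of the mitotic kinases, Plk1, which acts in centrosomes, spindle and cytokinesis, read 1244 in mock, 1111 with TNBS, 2117 with ginger and 2340.1 with zingerone. It was 1.70-fold and 1.88-fold above mock with ginger and zingerone. Aurka, needed for spindle poles, read 356, 403, 569 and 578 and split the arrays the same way, with ginger 1.60-fold and zingerone 1.63-fold above mock. Aurkb, the kinase of the chromosomal passenger complex, read 625, 617, 748 and 544. Ginger was its highest and zingerone its lowest array. Birc5, survivin of the same complex, read 572, 450.1, 596 and 626, with TNBS 1.27-fold below mock and zingerone 1.39-fold above TNBS.

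The spindle checkpoint is represented by Bub1, Bub1b, Ttk and Mad2l1. Bub1b read 294 in mock, 185 with TNBS, 257 with ginger and 350.5 with zingerone, 1.59-fold lower with TNBS than in mock and 1.89-fold higher with zingerone than with TNBS. Mad2l1 read 472, 457, 650.2 and 728, and Ttk read 227, 210.0, 279 and 311. Bub1 read 261, 286, 356 and 364. All 4 checkpoint genes were highest with zingerone, but Bub1b alone was far below mock with TNBS.

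Ube2c and Cdc20 work with the anaphase-promoting complex, which marks cyclins and securin for destruction. Ube2c, its ubiquitin-conjugating enzyme, read 1853 in mock, 1714 with TNBS, 3040.5 with ginger and 3151 with zingerone. Mock and TNBS lay within 1.08-fold, and ginger and zingerone were 1.64-fold and 1.70-fold above mock. Cdc20, its activator, read 364, 349, 398 and 383 with all arrays within 1.14-fold.

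For chromosomes, Top2a, the topoisomerase that untangles sister DNA, read 241 in mock, 123 with TNBS, 160.5 with ginger and 262 with zingerone. TNBS was 1.97-fold below mock and zingerone 2.13-fold above TNBS, while ginger stayed 1.5-fold below mock and 1.63-fold below zingerone. The single Top2a probe was dim, and its TNBS and ginger readings lay under the mock array's lower quartile of 165.0, so these folds are loosely set. Cenpa, the histone H3 variant of centromeres, read 861, 1014, 1421 and 2012. It was not low with TNBS, and its zingerone level was 2.34-fold above mock, the only one of the 41 genes past 2-fold there. Mki67, the proliferation antigen Ki-67 that coats mitotic chromosomes, read 311, 249, 325 and 373, with TNBS lowest and zingerone just under 1.5-fold above it.

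Spindle motors and spindle-binding proteins were mixed. Kif11, the motor that separates spindle poles, read 249.8 in mock, 211 with TNBS, 272 with ginger and 278 with zingerone. Tpx2, which activates Aurka, read 578, 561, 719.8 and 850.5 and was 1.52-fold higher with zingerone than with TNBS. Nusap1, a microtubule-bundling protein, read 263, 219, 258 and 244. Genes of the central spindle and cytokinesis did not share a pattern. Kif23 read 373, 516, 490.4 and 622, lowest in mock. Prc1 read 1226, 1016, 1144 and 984, with mock highest and zingerone lowest. Kif20a read 160.5, 159.8, 171 and 152, within 1.13-fold and dim.

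Compared with mock, the treated arrays were near level for replication and higher for mitosis. With ginger, 13 of 19 replication genes were above mock with a median of 0.05 and 18 of 22 mitosis genes with a median of 0.24, where 49.8% of all genes were above and their median was 0.00. No replication gene was 1.5-fold from mock with ginger. Of the mitosis genes Plk1, Cenpa, Ube2c and Aurka were at least 1.5-fold higher (3.06% of all genes), and Top2a was at least 1.5-fold lower (3.28%). With zingerone, 12 of 19 replication genes were above mock with a median of 0.08 and 18 of 22 mitosis genes with a median of 0.31, where 48.3% of all genes were above and their median was -0.01. At least 1.5-fold higher (4.09% of all genes) were Cdt1 and 7 mitosis genes, Cenpa, Plk1, Ccnb2, Ube2c, Kif23, Aurka and Mad2l1, of which Cenpa was past 2-fold (0.944%). The 95th percentile of the gap between probe pairs was 0.81 for ginger against mock, which none of the 41 genes passed. For zingerone against mock it was 0.84, which Cenpa and Plk1 passed at 1.22 and 0.91. Cenpa alone passed the 0.95 for brighter genes. Relative to 9 reference genes, whose own median was 0.11 above mock with ginger and 0.21 with zingerone, the replication medians turned to -0.06 and -0.13 and the mitosis medians were 0.13 and 0.10. The 9 were Gapdh, Hprt, Tbp, Rplp0, Sdha, Ywhaz, B2m, Pgk1 and Gusb, and not all were steady. B2m and Pgk1 were 1.64-fold and 1.85-fold higher with TNBS than in mock, the only ones past 1.5-fold there. Gapdh and Tbp were dim.

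Between the treated arrays, the replication genes were near level, with a median ginger-minus-zingerone difference of -0.02. Higher with ginger were 9 of 19, where 55.5% of all genes were higher and their median was 0.03. Rrm1 was the widest of the replication genes, 1.20-fold higher with ginger. Of the mitosis genes 17 of 22 were lower with ginger than with zingerone, with a median of -0.12, where 44.1% of all genes were lower and their median was 0.03. Top2a was the only one at least 1.5-fold lower (3.2% of all genes). Cenpa and Ccnb2 followed at 1.42-fold and 1.4-fold, and Aurkb was the widest in the other direction, 1.38-fold higher with ginger. The 95th percentile of the gap between probe pairs for this comparison was 0.73, which all of these differences lay under.

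For each of the 7 genes with several probes, the brightest probe showed a wider TNBS-minus-mock difference than the mean of its probes. The brightest Mki67 probe read 765 in mock, 559 with TNBS, 879 with ginger and 1029 with zingerone, while the dimmest read 122, 128, 125 and 135. The brightest Birc5 probe read 988, 736, 1220.4 and 1272, and all 3 of its probes were lowest with TNBS. The brighter Rrm2 probe read 1258, 793, 1490.0 and 1216, and the dimmer 319.5, 270, 288 and 379. Their signs against mock differed with ginger and with zingerone. These probes shared the low TNBS reading except for the dim Mki67 one. The pair for Tyms disagreed in sign for TNBS against mock and for ginger against TNBS, and the probes for Cdc20 disagreed for TNBS against mock and for zingerone against TNBS, so neither gene has a settled direction there. Probes for Cdc6 and for Nusap1 disagreed in sign for zingerone against TNBS.

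**Figure D4:**
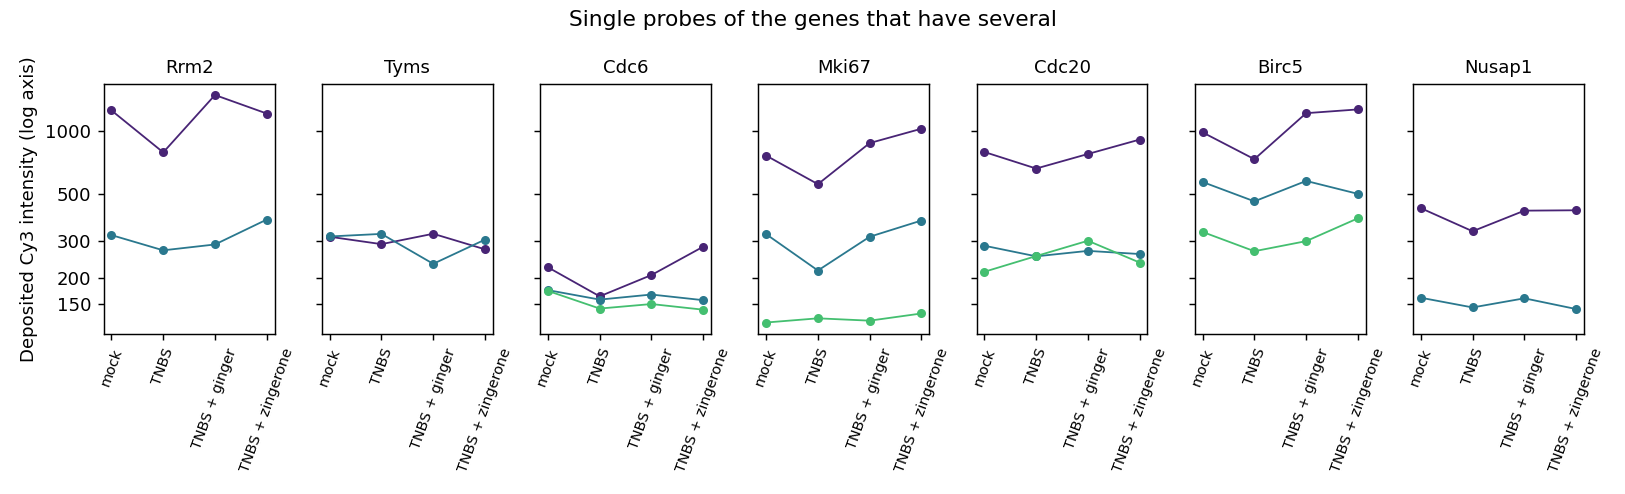
Deposited Cy3 intensity (vertical log axis) on the 4 arrays (horizontal axis) for each probe of the 7 genes with several probes, with 1 line per probe. The 3 Birc5 probes dip together on the TNBS array, the dimmest Mki67 probe stays between 122 and 135, and the lines of Tyms cross.

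Further genes of the same processes, listed with the earlier results known, had medians of the same sign and smaller size in the comparisons of TNBS with mock and of the treated arrays with TNBS. Of 50 further replication genes 39 were below mock with TNBS (median -0.21, where 52.3% of all genes were below), 37 were above TNBS with ginger (median 0.24, against 50.4%) and 42 with zingerone (median 0.24, against 45.5%). At least 1.5-fold lower with TNBS were 5 of the 50 (7.72% of all genes), and at least 1.5-fold higher were 4 with ginger (3.67%) and 8 with zingerone (8.87%). Of 50 further mitosis genes 32 were below mock with TNBS (median -0.08), 41 were above TNBS with ginger (median 0.20) and 39 with zingerone (median 0.18). At 1.5-fold, against the same backgrounds, 5 were lower with TNBS, 3 were higher with ginger and 10 with zingerone, and Lmnb1 alone was lower with each treatment than with TNBS. The TNBS counts of both lists and the ginger count of the mitosis list lay near the background.

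In the other comparisons the further genes also had medians of the members' sign, smaller except for replication genes between the treated arrays. Against mock, the further mitosis genes had medians of 0.05 with ginger and 0.13 with zingerone, where the 22 mitosis genes had 0.24 and 0.31. Above mock were 33 of the 50 with ginger and 32 with zingerone, against 49.8% and 48.3% of all genes. Of the 50, 27 were lower with ginger than with zingerone (median -0.05), where 44.1% of all genes were lower. The further replication genes had medians of 0.00 and 0.06 against mock, with 25 and 31 of 50 above, against the same 49.8% and 48.3%. Their median was -0.08 for ginger minus zingerone, wider than the -0.02 of the 19 replication genes.

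Single genes of these lists showed other patterns. Prim2, the partner of Prim1 in primase, read 1086 in mock, 262 with TNBS, 258 with ginger and 273 with zingerone, so that mock stood alone where the Prim1 arrays did not. Pold1, the catalytic subunit of the lagging-strand polymerase, read 670.5, 275, 397 and 701. Gmnn, geminin, the inhibitor of Cdt1, read 1183, 897, 1692 and 1756. Spc24 of the kinetochore read 574, 237, 563 and 553, low with TNBS only. Lmnb1, a nuclear lamina protein, read 187, 517, 264 and 276, high with TNBS. Cdc25b, a phosphatase that activates Cdk1, was lowest in mock at 439, against 579, 756 and 752, and Ska1 of the kinetochore read 423, 326, 449 and 298.

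The signals upstream of S phase went both ways. The median over 11 drivers of G1 was 0.05 for TNBS against mock, -0.00 for ginger against TNBS and -0.04 for zingerone against TNBS, and none of the 11 was past 1.5-fold in these comparisons. Over the 8 brighter drivers the TNBS-minus-mock median was 0.21. With ginger 10 of the 11 drivers were above mock, with a median of 0.07, where 49.8% of all genes were above. Ccnd1, cyclin D1, read 726 in mock, 868 with TNBS, 867 with ginger and 828 with zingerone. Myc read 383, 555, 398 and 447, highest with TNBS, as were Cdk6 at 331, 492, 419.5 and 353 and Cdk2 at 524, 738, 658 and 718. Cdk4, named here after its values were seen, was instead lowest with TNBS at 3403, against 3967 in mock, 4707 with ginger and 4382 with zingerone. Over 17 brakes of the cell cycle the medians were -0.04, 0.04 and 0.05. Cdkn1a, the Cdk inhibitor p21, read 712, 1532, 1135 and 975, and Btg2, an antiproliferative p53 target, read 1969.8, 5047, 2842 and 2362. Both were highest with TNBS, where most replication genes were lowest. Rbl2, the pocket protein p130, was low there instead at 271, against 557 in mock, 342 with ginger and 423 with zingerone, and Rb1 read 426, 360.5, 423 and 588.

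Markers of the colon epithelium had medians of the same sign as those of the cell-cycle genes, and a wider one for TNBS against mock. All 12 listed markers were measured, none was under the lower quartile of the arrays, and their summed intensity was 183436 in mock, 173155 with TNBS, 201647 with ginger and 215622 with zingerone. Their median was -0.39 for TNBS against mock (9 of 12 below), 0.39 for ginger against TNBS and 0.41 for zingerone against TNBS (10 of 12 above in each). Epcam, the epithelial adhesion molecule, read 23352, 16459.8, 23979.5 and 23730.0. Measured against the epithelial median, the replication median was 0.11 for TNBS against mock, -0.09 for ginger against TNBS and -0.05 for zingerone against TNBS. The mitosis median relative to it was 0.28, -0.00 and 0.13. The part of epithelial content in the displacement of the cell-cycle genes was not tested.

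Markers of other cells of the tissue also differed between the arrays. The summed intensity of a list is carried by its brightest probes, so counts and medians stand beside it. Of all named genes 52.3% were below mock with TNBS, and 50.4% and 45.5% were above TNBS with ginger and zingerone. All 9 measured neutrophil markers were above mock with TNBS (median 3.03), and all 9 were below TNBS with ginger (median -0.93) and with zingerone (median -0.62). Their sum was 5965 in mock, 150104 with TNBS, 97231 with ginger and 76228 with zingerone, and most of it came from S100a8, S100a9 and Retnlg. Of 9 fibroblast markers 6 were above mock with TNBS and 3 below (median 0.64). Below TNBS were all 9 with ginger (median -0.45) and 7 with zingerone (median -0.43). Their sum of 8297, 24796, 10964 and 10456 was set by Vim, which other cells also express, and without Vim it was 4909, 5798, 4517 and 5316. Smooth muscle markers (8 of 8) summed to 21192, 16837, 16814 and 9959. Of these 8, 7 were below mock with TNBS (median -0.48). Against TNBS, 5 were above with ginger (median 0.16) and 4 with zingerone (median -0.01). The low zingerone sum came mostly from Actg2, at 8531 with TNBS and 4091 with zingerone. Markers of B lymphocytes (8 of 10) summed to 5845, 4525, 4849 and 4711. All 8 were below mock with TNBS (median -0.37). Above TNBS were 7 with ginger (median 0.05) and 6 with zingerone (median 0.26). Markers of T lymphocytes (7 of 10) summed to 3040.0, 3277, 3187 and 2774, with 4 of 7 below mock with TNBS (median -0.08). Above TNBS were 4 with ginger (median 0.00) and 2 with zingerone (median -0.06). Without Thy1, which is also on the fibroblast list, the T lymphocyte sum was 2628, 2299, 2587 and 2046, and TNBS turned lower than mock. The 11 measured markers of the crypt base had medians of -0.07, 0.07 and 0.06 for TNBS against mock and for ginger and zingerone against TNBS. Lgr5, the crypt stem cell receptor, read 119, 136, 127 and 128, too dim to order. Liver markers (5 of 6) had medians against mock of -0.32 with TNBS, -1.71 with ginger and -1.86 with zingerone. Below mock were 4 of the 5 with TNBS and all 5 with each treatment. Erythroid markers (3 of 6) had medians against mock of 0.42, 0.29 and 0.08, with 2 of the 3 above on each array. No marker reads 0, since the lowest deposited value is 74.25. The part of these cells in the cell-cycle values was not tested.

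**Figure D5:**
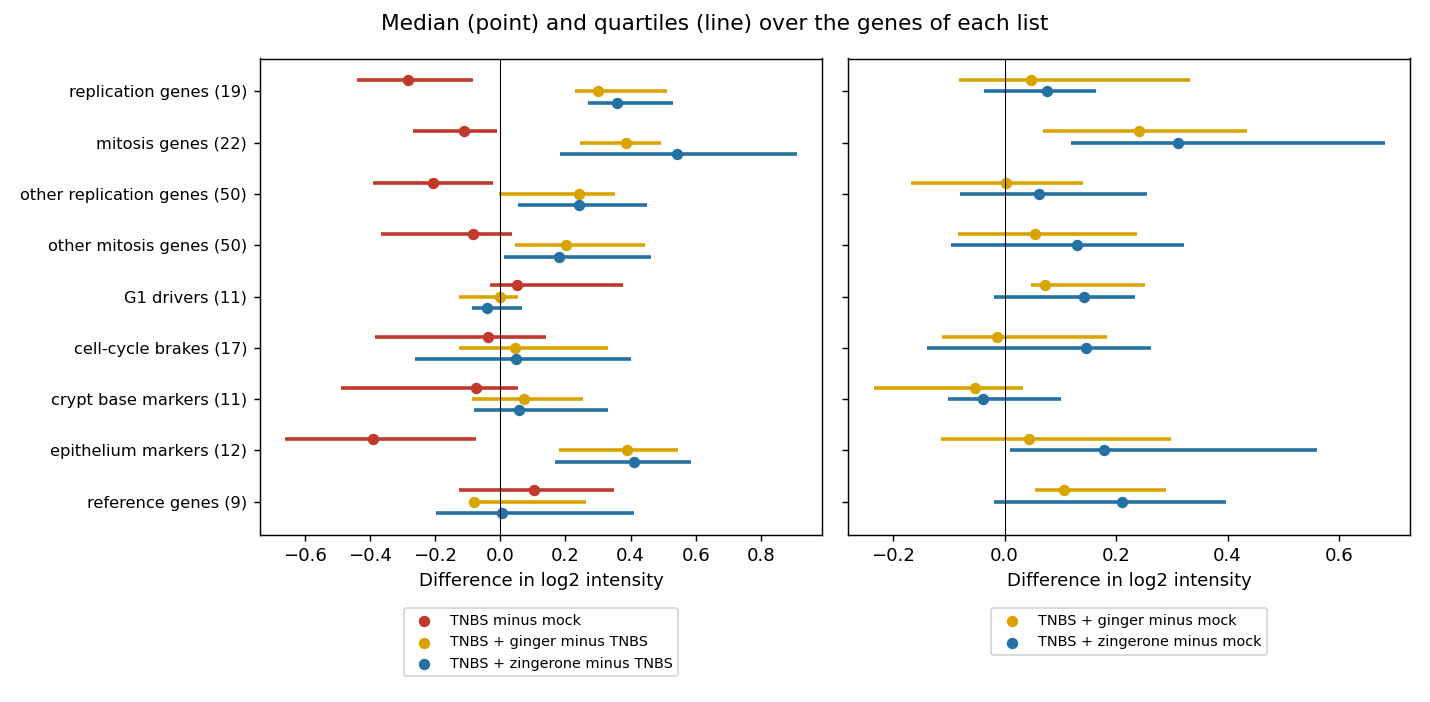
Median (point) and quartiles (line) of the log2 intensity difference (horizontal axis) over the genes of each list (number measured in parentheses), for TNBS minus mock and each treated array minus TNBS (left) and each treated array minus mock (right). Replication genes, mitosis genes and epithelium markers lie left of 0 for TNBS minus mock (-0.28, -0.11 and -0.39) and right of 0 for both treated arrays minus TNBS, while G1 drivers lie at 0.05, -0.00 and -0.04.

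Among genes outside the 44, those with the same promoter matches differed little from the whole set. The set held 6666 genes with an entry whose mean reached the median intensity. It left out the 44 genes only, so genes of the further lists remained, and the genes with a match are part of it. The 536 with both CHR and CCAAT had a median zingerone-minus-TNBS difference of 0.03, against -0.01 over all of them. At least 1.5-fold higher were 14% against 12.8%. The 1153 with an E2F spelling had medians of -0.04 for TNBS minus mock, 0.05 for ginger minus TNBS and 0.02 for zingerone minus TNBS, against -0.04, 0.03 and -0.01 over all. At least 1.5-fold lower than with TNBS were 4.86% of them with ginger and 6.59% with zingerone, against 6.78% and 9.09%, and at least 1.5-fold higher were 6.07% and 13%, against 6.81% and 12.8%.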

How the data were processed

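Colon RNA of 4 groups was measured on 1-colour arrays, 1 per group. The deposited values are Cy3 intensities, 1 per probe and array. The submitters' processing notes name limma with neither version nor role. How background and normalization were handled is not given in the sources used here. Sorted columns differed by no more than 1.84%, a pattern that quantile normalization leaves, and folds of dim probes may be understated, since no intensity lay below 74.25. Of 29922 probes 21020 had 1 symbol and 8902 none, and symbols were set to those of RefSeq, GRCm38.p6 (17558 current, 3410 updated, 52 kept). Among the 44 genes, 2 were matched through an older symbol. Probes of a gene were averaged as log2 intensities, with no pseudocount and no filter.

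Members and lists were chosen with earlier results of these data known. With 1 array per group there was no test, and each of 6 comparisons is a difference of 2 arrays. Full values were due for Mcm2 to Mcm7, Pcna, Rrm2, E2f1, Ccne1, Mki67, Top2a, Cdk1, Plk1, Aurkb and Birc5, for the 3 largest differences per set and comparison, for the largest of each further cell-cycle list among genes whose mean reached the median intensity, and for Ccnd1, Myc, Cdkn1a, Lgr5 and Epcam. The values of the remaining members were added after they were seen. A probe stood apart where 3 arrays lay within 1.4-fold and the remaining one at least 4-fold away. Alternatives changed the scaling, the floor (25th percentile), the filter on dim genes, the background (5th percentile subtracted, values held at 50 or more), the probe summary and the symbols, and centring on reference genes was added after seeing the data. Python 3.11.15, numpy 2.4.6, pandas 2.3.3 and matplotlib 3.10.9 were used. The averaging of probes, the TNBS-minus-mock difference and the repeated quantile normalization were checked on simulated data. The other steps were not.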

Additional observations from a re-analysis of the deposited data

Results flagged for a closer look

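Of the 41 measured genes, 4 lay on opposite sides of the TNBS array with ginger and with zingerone, all of them mitosis genes, and the difference between the treatments was not tested. Aurkb, the passenger complex kinase, was 0.28 (log2) above TNBS with ginger and at -0.18 with zingerone. Kif20a, a cytokinesis motor, stood at 0.10 and -0.077. Kif23, another cytokinesis motor, stood at -0.072 and 0.27. Prc1, which bundles the central spindle, stood at 0.17 and -0.047. All 4 genes have 1 probe each, and each value lies within the 95th percentile of the gap between probe pairs (0.81 for ginger and 1.10 for zingerone).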

How the results depend on the processing

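No paired analysis was possible because each group has 1 array. A median or a single value counted as moved when it shifted by over 0.1 (log2), and a count when it differed by over 1.5 times. Of 264 list results under alternatives, 35 moved. Of 2568 values of single genes, 280 moved and 48 changed sign, 28 of them relative to the reference genes, and none of those was past 1.5-fold. Among list medians 4 changed sign, all under 0.1 in size: replication against mock relative to the reference genes with ginger and with zingerone, and replication for ginger minus zingerone with the brightest probe (0.02) and the median of the probes (0.01). Within these tolerances no list result moved under repeated quantile normalization, equal medians, the 25th percentile floor, the median of the probes, removal of probes that stand apart, or annotation symbols.

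Subtraction of the 5th percentile widened the differences. The replication medians became -0.38 for TNBS against mock, 0.55 for ginger and 0.53 for zingerone against TNBS, with 5 genes 1.5-fold and 2 genes 2-fold lower for TNBS, 9 and 2 higher for ginger, and 7 and 2 higher for zingerone. The mitosis medians became 0.53, 0.78 and, for zingerone against mock, 0.45, with 2 genes 2-fold lower for TNBS, 10 and 3 higher for ginger, and 14 and 7 higher for zingerone. Subtraction lowers the base of every ratio by construction, which widens folds of dim genes. Over all 16637 named genes, the number at least 1.5-fold lower for TNBS against mock rose from 1284 to 2275. The number at least 1.5-fold higher than TNBS rose from 611 to 1347 for ginger and from 1476 to 2327 for zingerone. No 2-fold count over all genes was made under the alternatives.

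A filter on the mean, which tests fewer genes, moved the replication median for ginger against TNBS to 0.40. It moved the mitosis median for zingerone against mock to 0.56 and left 1 mitosis gene 1.5-fold lower for TNBS. Of the 8319 genes kept, 13.2% were 1.5-fold lower for TNBS. With genes that reach the median on 1 array these medians were 0.40 and 0.47. The brightest probe gave 2 replication genes 1.5-fold lower for TNBS and 5 mitosis genes 1.5-fold higher for ginger. Over all named genes it gave 1444 lower for TNBS and 719 higher for ginger, from 1284 and 611.

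Relative to the reference genes, chosen after seeing the data, the medians were -0.38 (replication) and -0.21 (mitosis) for TNBS against mock, -0.058 and 0.13 for ginger against mock, and -0.13 and 0.10 for zingerone against mock. For TNBS 4 replication genes were 1.5-fold lower and 1 mitosis gene 2-fold lower. For ginger against TNBS 5 genes of each set were 1.5-fold higher and 1 mitosis gene 2-fold higher. Over all named genes 1749 were 1.5-fold lower for TNBS and 833 higher for ginger against TNBS, from 1284 and 611. This centring moved the median of all genes to -0.12, 0.08, -0.04, -0.11 and -0.22 in these 5 comparisons with mock or TNBS, in the order TNBS against mock, ginger and zingerone against TNBS, ginger and zingerone against mock. The share of higher genes among all 1.5-fold differences went from 49.0% to 35.6% for TNBS against mock, from 48.3% to 61.3% for ginger against TNBS, and from 48.3% to 28.1% and from 56.6% to 17.9% for ginger and zingerone against mock.

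A single array per group and dim probes limit these values: 12 of the 41 genes have a mean under the median intensity, where background takes up more of the signal.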

Other observations

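Cdkn2b, the Cdk inhibitor p15, read 1040.1 in mock, 514 with TNBS, 894 with ginger and 945 with zingerone, opposite to Cdkn1a, which was highest with TNBS. Lig1, the ligase that joins Okazaki fragments, read 1856, 692, 987 and 1203, and Fen1, the nuclease that trims their flaps, read 479, 262, 419.5 and 614. Both were lowest with TNBS. Ect2, which starts the cleavage furrow, read 254, 135, 188 and 350.5, and Ncaph, a condensin subunit, read 367, 216, 323 and 479, both lowest with TNBS and highest with zingerone, as was Top2a. Cdca5, the cohesin protector sororin, read 578, 264, 389.5 and 472, highest in mock. These genes were chosen after their values were seen.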
